A study of Bos taurus with 45 samples.

Results

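The ruminal papillae of heifers whose rumen later became more acidic and of heifers whose rumen later became less acidic were compared while both were still fed 72% grain. The heifers of the down group (DG: 192, 314, 236, 170 and 182) were set against those of the up group (UG: 262, 178, 352, 286 and 360), 1 sample per heifer, so that 10 of the 45 samples and 10 of the 15 heifers were used. The study formed the groups on the change of mean ruminal pH when the diet went from 72% to 89% grain, which fell in DG and rose in UG. The pH on 72% grain was thus part of what placed a heifer in its group. Any difference below goes with the pH at the time of sampling as much as with what came later, and these cannot be told apart. By the study's group means, the pH on 72% grain was lower in UG than in DG, so UG was the more acidic group when sampled. The remaining 5 heifers, whose pH was stable (BG: 172, 294, 246, 362 and 258), are given only to show where the DG and UG values lie.

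All animals were Angus-Hereford cross-bred beef heifers of about 8 months, moved stepwise from a forage diet to a high grain diet, and no group received another treatment. The labels call the 3 sampled diets 3%, 75% and 92% grain where the paper has 0%, 72% and 89%, and the latter figures are used here. The heifers were fed 72% grain on days 13 to 16 and a papillae biopsy was taken from the ventral sac of the rumen on day 15, so each value is that of a single biopsy soon after the diet change. Expression was measured by mRNA sequencing and is given as RPM, a gene's reads scaled to a sample total of 1000000. The 10 samples held, in units of 1000000, from 22.53 to 32.69 reads on genes (28.7 ± 2.39 in DG and 27.67 ± 4.24 in UG, SD, n = 5 each), and RPM 1 stood for 22.5 reads or more. The files name genes by Ensembl identifier only, so the tissue label could not be checked against markers of epithelium or of other cells, and 17 genes could be named.

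The wall of the rumen is lined by a layered, keratinised epithelium folded into papillae, which takes up the short-chain fatty acids that microbes release from feed. Grain ferments faster than forage, the acids build up and the pH drops, and the epithelium of an animal moved to grain is known to thicken and to shed its outer layers. A biopsy holds the cell layers of the epithelium together with connective tissue, vessels and immune cells, and fewer cells of a type and less RNA per cell cannot be told apart in it.

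No gene differed between DG and UG on 72% grain by the study's threshold (limma adjusted p under 0.05 and fold change over 1.5), which is 0% of the 11516 genes tested, and no gene had an adjusted p under 0.05 at any fold change. The smallest limma adjusted p was 0.655. At an unadjusted p under 0.05, 288 genes were higher in DG (2.5% of those tested) and 504 were higher in UG (4.38%). edgeR on the reads recovered from the RPM called 0 genes as well, with 427 and 364 genes at an unadjusted p under 0.05. DESeq2 on the same reads called 6 genes, 0.0521% of the 11513 it gave an adjusted p for, of which 4 were higher in DG and 2 in UG, and 11 genes had a DESeq2 adjusted p under 0.05 at any fold change. These 6 genes had limma adjusted p-values of 0.655 to 0.721.

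The excess of genes higher in UG depended on how the samples were scaled. The median log2 fold change of all genes, DG minus UG, was -0.023 as deposited and 0.001 after rescaling by TMM factors, which turned the split of the genes at an unadjusted p under 0.05 to 416 higher in DG and 364 higher in UG. Single heifers also moved these counts. Without DG heifer 236 they were 162 and 262, without UG heifer 352 they were 438 and 404, and without DG heifer 182 they were 411 and 733. No gene passed the limma threshold in any of these fits.

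On the scale of log2(RPM + 1), the values were precise enough to bound most differences. That scale shrinks folds at low levels, so the bounds below are not bounds on RPM ratios of low genes. The 95% interval of the log2 fold change had a median half-width of 0.279, a fold of 1.21. For 9376 of the 11516 genes (81.4%), the whole interval lay within 1.5-fold in either direction, and for 11187 genes (97.1%) it lay within 2-fold. The estimate itself was over 1.5-fold for 67 genes higher in DG and 63 genes higher in UG, and over 2-fold for 13 genes. None of the 15 named genes that were tested had its interval within 1.5-fold, so for these the size of a difference was left wide.

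**Figure D1:**
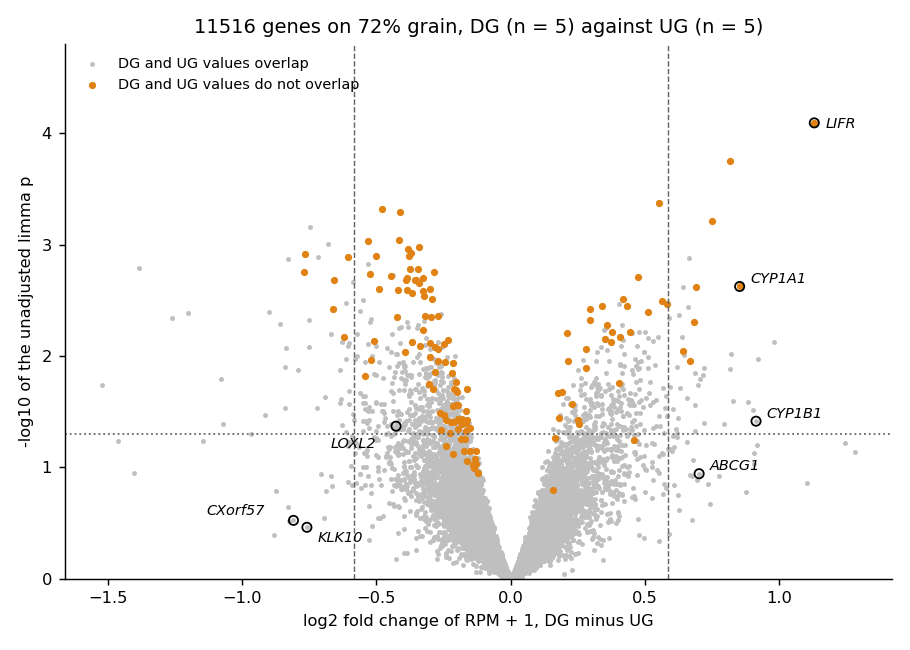
Each point is 1 of 11516 genes; the x axis is the log2 fold change of RPM + 1 (DG minus UG) and the y axis is the -log10 of the unadjusted limma p. Dashed lines mark a fold change of 1.5, the dotted line an unadjusted p of 0.05, orange points are genes whose 5 DG and 5 UG values do not overlap, and *LIFR* stands highest, although its adjusted p was 0.655.

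Few genes kept the heifers of the groups apart. The 5 DG values were all above the 5 UG values for 38 genes (0.33%) and all below them for 97 genes (0.842%). The same heifers on 0% grain had 110 such genes higher in DG and 39 higher in UG, and on 89% grain 50 and 13. All of these counts are of RPM as deposited, and their split by direction was not checked after rescaling. Both directions together made up 1.29% of the genes on 0%, 1.17% on 72% and 0.547% on 89% grain. Genes at an unadjusted limma p under 0.05 made up 7.94% on 0% grain and 3.43% on 89% grain, beside the 6.88% on 72% grain, and the limma threshold was passed by 0 genes on each of these diets (smallest adjusted p 0.534 and 0.969). edgeR called 0 genes on 0% and 89% grain too, while DESeq2, which called 6 genes on 72% grain, was not run on these 2 diets alone. The groups were thus no further apart by these counts on 72% grain than they had been before grain was fed; the counts on the diets come from the same animals and the difference between them was not tested.

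*LIFR* (ENSBTAG00000010423), the receptor subunit through which leukemia inhibitory factor and related cytokines of the interleukin 6 family act, had the smallest p of all genes. In DG it had 5.20, 3.23, 7.30, 3.78 and 5.26 RPM (heifers in the order above), and in UG 1.86, 1.65, 2.02, 1.98 and 0.892 RPM. The lowest DG heifer lay above the highest UG heifer, and the means were 4.95 ± 1.58 and 1.68 ± 0.464 RPM (SD, n = 5 each). These are low levels, at 90 to 212 reads per DG sample and 25 to 64 per UG sample. The log2 fold change of RPM + 1 was 1.13 (SE 0.198, 95% interval 0.70 to 1.56), with an unadjusted limma p of 8.09e-05 and an adjusted p of 0.655. Across the limma alternatives its adjusted p was between 0.398 and 1.0, edgeR gave 0.652, and DESeq2 gave 0.000503 with a log2 fold change of 1.59. The estimate stayed between 1.00 and 1.24 whichever heifer was left out.

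The 5 BG heifers had 3.03 to 8.22 RPM of *LIFR*, all above the highest UG heifer, so that on 72% grain UG stood apart and DG and BG overlapped. Before grain, *LIFR* was at 3.89 ± 1.69 RPM in DG and 2.97 ± 0.796 RPM in UG, and on 89% grain at 4.96 ± 1.31 and 4.64 ± 3.06 RPM. Each of the 5 UG heifers was lower on 72% grain than on 0% grain and higher again on 89% grain. In DG, 4 of 5 heifers were higher on 72% than on 0% grain, and 3 of 5 were higher on 89% than on 72% grain. The difference between the groups on 72% grain exceeded that on 0% grain by 0.87 on the log2 scale (limma adjusted p = 0.842 without a term for the heifer and 0.366 with heifer as a replicate block), and that on 89% grain by 0.89 (adjusted p = 0.808 and 0.375). *LIFR* was singled out for its small p on 72% grain, and that choice favours a larger difference on this diet than on the others.

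**Figure D2:**
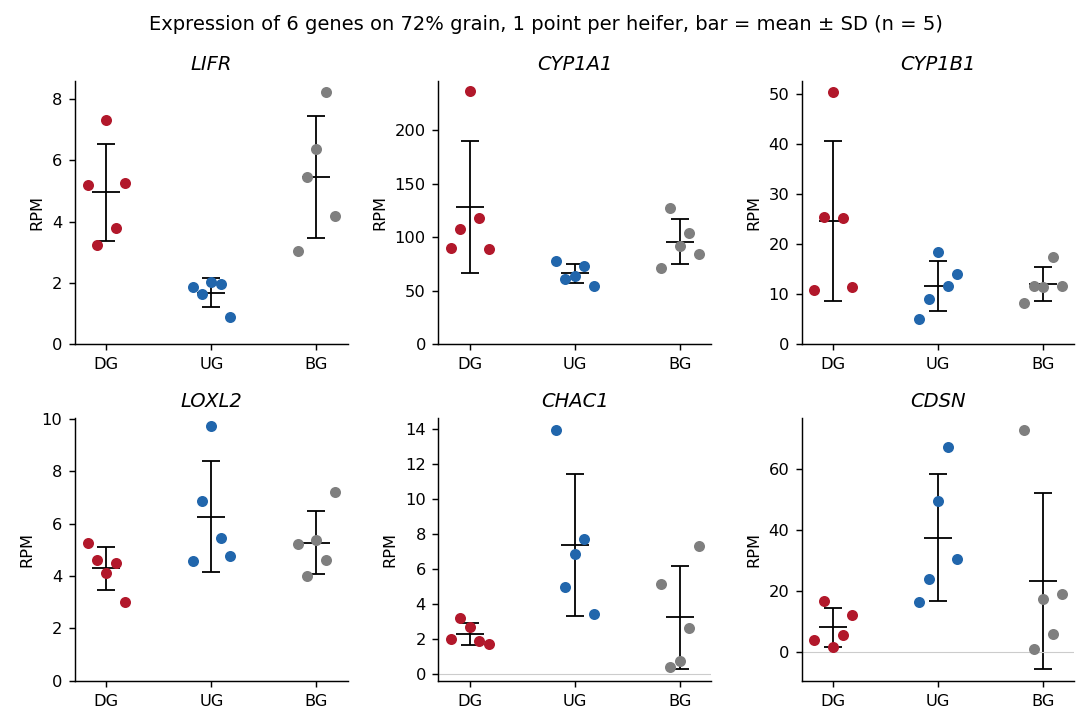
RPM of 6 genes on 72% grain (y axes, linear), 1 point per heifer in DG, UG and BG, with bars for the mean ± SD of 5 heifers. *LIFR*, *CYP1A1* and *CHAC1* have no overlap between DG and UG, *CDSN* overlaps in 1 pair of heifers, and *CYP1B1* and *LOXL2* overlap more widely.

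*CYP1A1* and *CYP1B1*, cytochrome P450 enzymes that oxidise aromatic compounds and are classic targets of the aryl hydrocarbon receptor, were both higher in DG by estimate without passing the threshold. *CYP1A1* (ENSBTAG00000001021) had 89.9, 108, 237, 118 and 88.7 RPM in DG, against 77.6, 61.4, 63.9, 73.2 and 54.4 RPM in UG. All DG heifers were above all UG heifers, and heifer 236 was far above the rest of DG. The log2 fold change was 0.85 (SE 0.225, limma adjusted p = 0.655), and 0.61 without heifer 236. DESeq2 gave an adjusted p of 0.0522. BG overlapped both groups, with 71.2 to 127 RPM.

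*CYP1B1* (ENSBTAG00000010531) had 10.9, 25.4, 50.3, 25.3 and 11.4 RPM in DG, against 4.97, 9.12, 18.5, 11.6 and 14.0 RPM in UG. The groups overlapped, and heifer 236 was again the highest. Its log2 fold change was 0.91 (SE 0.396, limma adjusted p = 0.721), and BG, at 8.20 to 17.5 RPM, lay within the range of UG. On 0% grain the log2 fold changes of *CYP1A1* and *CYP1B1*, DG minus UG, were 0.20 and 0.48, and on 89% grain they were -0.48 and -0.65. On 89% grain *CYP1B1* was lower than on 72% grain in 5 of 5 DG heifers and higher in 5 of 5 UG heifers. The change of the *CYP1B1* difference between 72% and 89% grain was 1.56 on the log2 scale (limma adjusted p = 0.808 without a term for the heifer and 0.371 with heifer as a replicate block).

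*CHAC1*, *CDSN* and *KLK10* were higher in UG by estimate. *CHAC1*, which degrades glutathione and is induced when cells lack amino acids or accumulate unfolded proteins, had 2.01, 3.16, 2.65, 1.85 and 1.68 RPM in DG, against 14.0, 4.95, 6.86, 7.71 and 3.39 RPM in UG. The groups did not overlap, although the highest DG heifer (3.16 RPM) and the lowest UG heifer (3.39 RPM) were close. *CDSN*, the corneodesmosin that holds the cornified outer cells together, had 4.12, 17.0, 1.62, 5.82 and 12.3 RPM in DG, against 16.5, 24.1, 49.8, 67.5 and 30.5 RPM in UG. Here only DG heifer 314 reached the lowest UG heifer.

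*CHAC1* (ENSBTAG00000010371) and *CDSN* (ENSBTAG00000021721) were not among the 11516 genes, since on each diet some heifer had RPM of 1 or less. With genes at RPM over 1 in at least 5 of the 10 samples, the log2 fold changes were -1.25 for *CHAC1* (SE 0.275) and -2.22 for *CDSN* (SE 0.492), both with a limma adjusted p of 0.665. At that filter DESeq2 gave an adjusted p of 0.00346 for *CHAC1* and 0.118 for *CDSN*. BG overlapped both groups, at 0.396 to 7.31 RPM of *CHAC1*, below UG heifers 262 and 286, and at 0.991 to 73.1 RPM of *CDSN*. On 0% grain *CDSN* was at 10.1 ± 12.2 RPM in DG and 6.36 ± 4.79 RPM in UG, and *CDSN* was higher on 72% grain in 5 of 5 UG heifers and 3 of 5 DG heifers.

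*KLK10* (ENSBTAG00000015129), a secreted serine protease of the kallikrein family, had 3.30, 8.66, 1.62, 5.00 and 25.4 RPM in the DG heifers, against 2.44, 10.8, 88.0, 6.99 and 7.31 RPM in the UG heifers. The groups overlapped throughout, and a single UG heifer, 352, held the high value. The log2 fold change of -0.76 (limma adjusted p = 0.86) became -0.03 without that heifer. For these 3 genes and for the 2 cytochromes the identifier was found by way of the study's lists for 72% against 89% grain. Those lists were made from these same 72% samples, so that the differences of all 5 genes are not independent evidence.

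**Figure D3:**
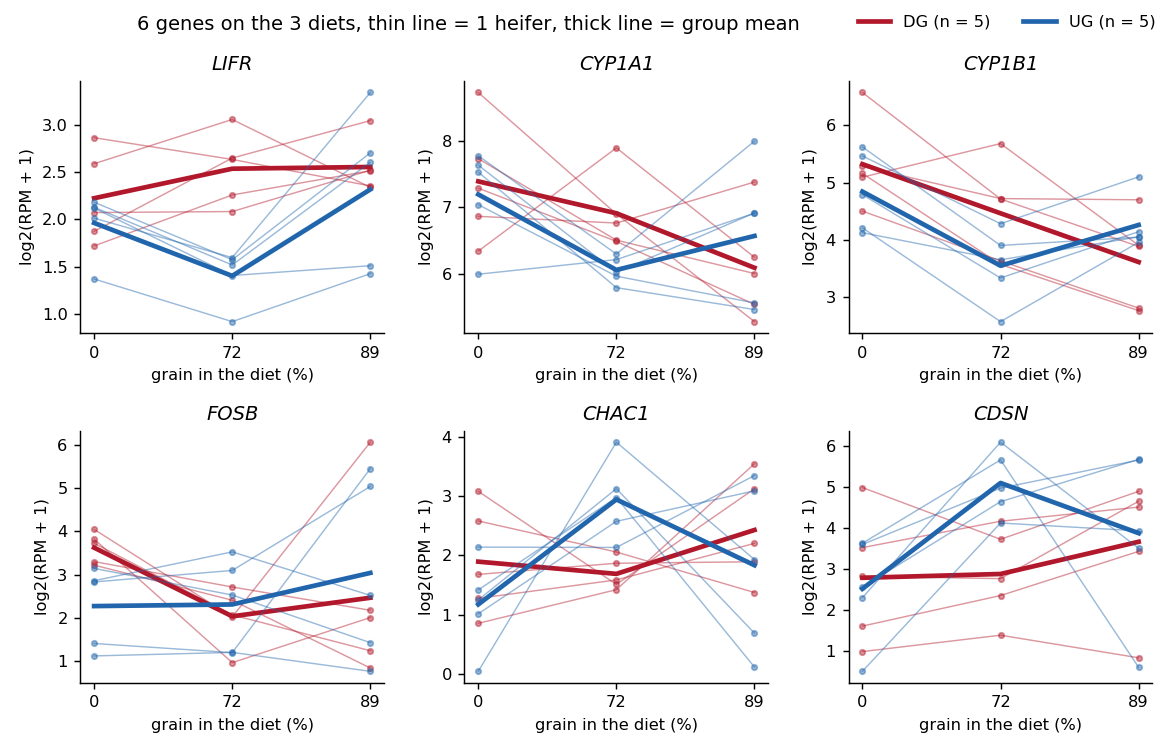
log2(RPM + 1) of 6 genes (y axes) on 0%, 72% and 89% grain (x axes); thin lines are single heifers and thick lines group means of DG (red) and UG (blue), n = 5 each. The means of *LIFR*, *CHAC1* and *CDSN* are furthest apart on 72% grain, and those of *CYP1B1* cross between 72% and 89% grain.

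The other named genes, like *LIFR*, come from those that the study listed as dependent on the diet. Of the 15 named genes tested, 7 were higher in DG and 8 in UG by estimate, and 4 had an unadjusted p under 0.05 (*LIFR*, *CYP1A1*, *CYP1B1* and *LOXL2*), beside 792 of all 11516 genes (6.88%). Both cytochromes among these 4 were named through lists made from these same samples. The study's list of diet-dependent genes, which named *LIFR* and *LOXL2*, used these samples too. Its genes had RPM over 1 in all 15 heifers on 1 diet only. *LIFR* missed this on 72% grain through UG heifer 360, at 0.892 RPM, while the lowest DG and BG values were 3.23 and 3.03 RPM. The naming of *LIFR* thus rests in part on a low UG value, and its difference is not independent of that choice. *LOXL2* (ENSBTAG00000006214), a lysyl oxidase that cross-links collagen, had 5.27, 4.60, 4.10, 4.48 and 3.03 RPM in DG, against 4.57, 6.85, 9.70, 5.45 and 4.75 RPM in UG. UG heifers 178, 352 and 286 were above every DG heifer while heifers 262 and 360 were not, and the log2 fold change was -0.43 (SE 0.189, limma adjusted p = 0.721). *CTGF* (ENSBTAG00000006367), a matrix protein made in response to transforming growth factor beta, had 3.74 ± 1.52 RPM in DG and 5.69 ± 2.13 RPM in UG (SD, n = 5 each), with a log2 fold change of -0.50 (limma adjusted p = 0.731).

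*ABCG1*, which exports cholesterol from cells, had 6.29 ± 2.65 RPM in DG and 3.85 ± 2.45 RPM in UG, and *RASL1A*, a small GTPase of the Ras family, 9.74 ± 4.39 and 6.32 ± 3.58 RPM (SD, n = 5 each). Their log2 fold changes of 0.70 and 0.61 had limma adjusted p-values of 0.752 and 0.763. The symbol *RASL1A* is given as the study prints it for ENSBTAG00000005244, and it does not match the study's own description of that RAS-like gene. The values of *ABCG1* lay between 2.52 and 9.39 RPM among DG heifers and between 0.488 and 6.29 RPM among UG heifers, so that the groups overlapped in most of their range. *CXorf57* lay between 0.185 and 24.5 RPM among DG heifers and between 5.90 and 47.5 RPM among UG heifers. Its lowest value, 5 reads, was that of heifer 170, which also had the lowest *BOLA-A* of DG, and its log2 fold change of -0.81 (limma adjusted p = 0.841) became -0.08 without that heifer.

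For 5 further genes the DG and UG values overlapped. *BOLA-A*, a class I major histocompatibility gene, had 7.32 ± 4.26 RPM in DG and 8.39 ± 2.07 RPM in UG, and *CXCL6*, a chemokine that draws neutrophils, 5.50 ± 4.09 and 7.79 ± 7.52 RPM (SD, n = 5 each). Reads of *BOLA-A* may be split among near-identical class I genes, which makes its level uncertain. *VNN1*, a pantetheinase, had 2.35 ± 1.27 and 2.33 ± 2.56 RPM, *BMP6*, a bone morphogenetic protein, 2.68 ± 0.803 and 2.46 ± 1.19 RPM, and *CDHR2*, a cadherin of the brush border, 4.37 ± 3.23 and 4.46 ± 2.39 RPM. The log2 fold changes of these 5 genes lay between -0.40 and 0.21, with limma adjusted p-values of 0.864 to 0.959. Their 95% intervals were wide, from -1.29 to 0.50 for *BOLA-A* and from -1.31 to 0.82 for *CXCL6*.

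*FOSB* (ENSBTAG00000008182), a transcription factor switched on within minutes of a stimulus, had 3.41 ± 1.71 RPM in DG and 5.08 ± 4.02 RPM in UG on 72% grain (SD, n = 5 each), with a log2 fold change of -0.27 (limma adjusted p = 0.927). On 0% grain it had 11.6 ± 3.02 RPM in DG and 4.60 ± 3.00 RPM in UG, where the ranges of 8.32 to 15.5 and 1.17 to 7.84 RPM did not overlap. It was lower on 72% than on 0% grain in 5 of 5 DG heifers and in 2 of 5 UG heifers. The change of the difference was -1.63 on the log2 scale (limma adjusted p = 0.842 without a term for the heifer and 0.366 with heifer as a replicate block).

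**Figure D4:**
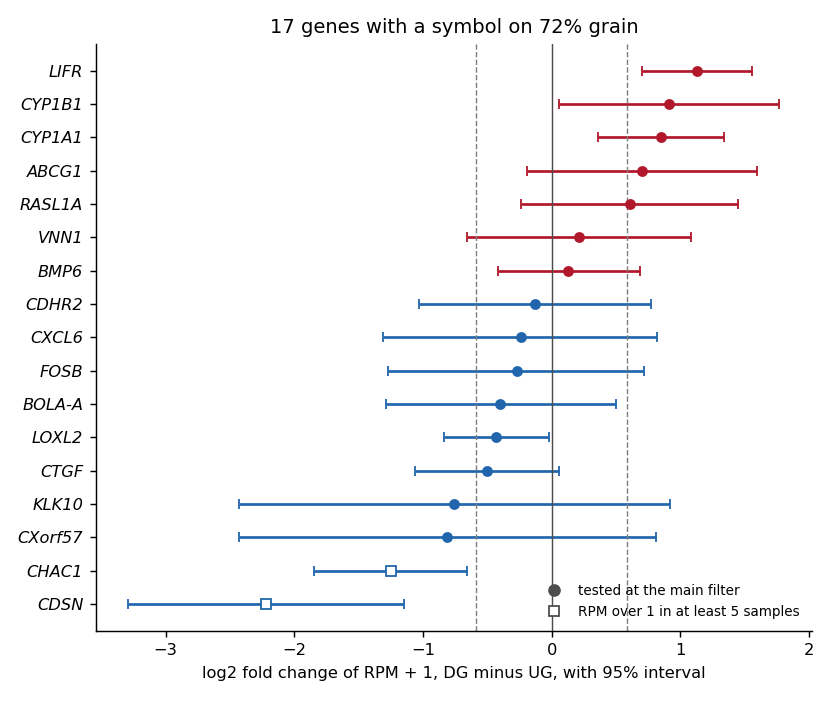
log2 fold change of RPM + 1 on 72% grain (x axis, DG minus UG) with its 95% interval for the 17 named genes; filled circles were tested with the 11516 genes, open squares with genes at RPM over 1 in at least 5 samples, and dashed lines mark a fold change of 1.5. The intervals of *LIFR*, *CHAC1* and *CDSN* lie wholly beyond 1.5-fold, but none passed after adjustment over all genes (adjusted p 0.655 and 0.665).

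Among genes without a name, chosen in the same way for their p on 72% grain, the smallest p-values with no overlap between the groups were those of ENSBTAG00000048059 and ENSBTAG00000004413 (higher in DG) and ENSBTAG00000046037 and ENSBTAG00000018261 (higher in UG). ENSBTAG00000048059 had 51.9, 39.3, 55.7, 44.0 and 54.0 RPM in DG, against 19.5, 38.3, 27.7, 25.2 and 28.1 RPM in UG, a log2 fold change of 0.82 (SE 0.156, limma adjusted p = 0.655, DESeq2 adjusted p = 0.00237). As with *LIFR*, it was lower on 72% than on 0% grain in 5 of 5 UG heifers, higher again on 89% grain in 5 of 5 (in heifer 286 only from 25.2 to 25.3 RPM), and at 34.6 to 69.9 RPM in BG. ENSBTAG00000004413 had 13.1 ± 1.01 RPM in DG, 8.70 ± 1.29 in UG and 13.5 ± 1.79 in BG (SD, n = 5 each), with a log2 fold change of 0.55 (limma adjusted p = 0.655, DESeq2 adjusted p = 0.00248).

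ENSBTAG00000046037 had 130 ± 19.2 RPM in DG and 181 ± 14.6 RPM in UG, and ENSBTAG00000018261 had 45.9 ± 3.98 and 61.6 ± 6.24 RPM (SD, n = 5 each). Their log2 fold changes were -0.48 and -0.41 (limma adjusted p = 0.655 for both), and the DESeq2 adjusted p-values were 0.0396 and 0.141, the former at a fold change under 1.5. Their BG means were 139 ± 21.3 and 47.6 ± 6.94 RPM, close to those of DG. ENSBTAG00000046037 was higher on 72% than on 0% grain and lower again on 89% grain in 5 of 5 UG heifers each time.

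The position of BG was counted for all genes on 72% grain. The mean log2 value of BG was nearer to that of DG than to that of UG for 6714 of the 11516 genes (58.3%). Among the 288 genes higher in DG at an unadjusted p under 0.05 it was nearer to DG for 211 (73.3%), and among the 504 genes higher in UG for 340 (67.5%). The genes were chosen for the distance between DG and UG, and these shares are a description without a test. Within the groups, the median SD of log2(RPM + 1) per gene was 0.178 in DG, 0.208 in UG and 0.173 in BG.

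Genes that changed from 0% to 72% grain were then looked up. Over all 15 heifers, 162 genes were higher and 15 lower on 72% than on 0% grain by the same threshold. This limma fit had no term for the heifer, and its samples include those compared here. The median log2 step of the 162 genes was 0.677 in DG, 0.785 in UG and 0.771 in BG, while the median over all genes tested was 0.050, 0.122 and 0.089. On 72% grain 121 of the 162 were higher in UG and 41 in DG by estimate, beside 6501 and 5015 of all genes, with a median log2 fold change of -0.164 beside -0.023 for all genes (-0.140 beside 0.001 after TMM). At an unadjusted p under 0.05, 21 of them were higher in UG and 6 in DG, beside 504 and 288 of all 11516 genes. After TMM these were 20 and 6, beside 364 and 416. On 0% grain the median of the same genes was -0.021, and on 89% grain -0.036. By heifer, the median step of the 162 genes ranged from 0.31 to 1.15 in DG and from 0.32 to 1.58 in UG, so that the groups overlapped.

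The study's lists of genes that differed between 72% and 89% grain in UG were also placed on this comparison. Of 122 genes that the study lists as higher on 89% grain in UG, 109 were tested, and 104 of these were higher in DG on 72% grain (median log2 fold change 0.492). Of 163 listed as lower on 89% grain in UG, 154 were tested and 149 were higher in UG on 72% grain (median -0.394). The UG samples on 72% grain were used to choose both lists, so these counts are no independent evidence of a direction. On 0% grain, which the lists did not use, 89 of the 109 genes were higher in DG (median 0.348). Of the 154, 128 were also higher in DG (median 0.219), beside 7107 of 11516 for all genes (median 0.049). The 0% samples are of the same heifers, so these counts are not independent of the choice either. They are also as deposited, and with edgeR, which rescales the samples, the median of all genes on 0% grain was 0.006.

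Of the genes listed for DG, 17 of 22 that were higher and 40 of 45 that were lower on 89% grain were tested. On 72% grain 14 of the 17 were higher in UG (median -0.286), and 23 of the 40 were higher in DG (median 0.086), beside 6501 of 11516 genes higher in UG and 5015 higher in DG (median -0.023). The DG samples on 72% grain were used to choose both lists, which by itself places the first list low and the second high in DG on this diet, so these counts are no evidence of a direction either. No gene of the 4 lists had a limma adjusted p under 0.05 between DG and UG on 72% grain.

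The 10 samples did not part by group along the main axes of variation. The first principal component held 22.1% of the variance and the second 17.5%. On the first, DG heifers had scores of -13.3, 4.5, -24.4, -11.4 and 8.3 and UG heifers 22.6, 0.4, 13.2, 7.3 and -7.3. The UG mean was 14.51 above the DG mean (exact permutation test over all splits into 5 and 5, two-sided, p = 0.111), and on the second component it was 0.51 above (exact p = 0.968). Group held 12.42% of the variance of all genes (exact permutation p = 0.238). Heifer 236 was at the DG end and heifer 262 at the UG end of the first component. With 1 heifer left out, the difference ranged from 5.54 without heifer 236 (exact permutation p = 0.635) to 18.47 without heifer 360 (exact permutation p = 0.0714).

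**Figure D5:**
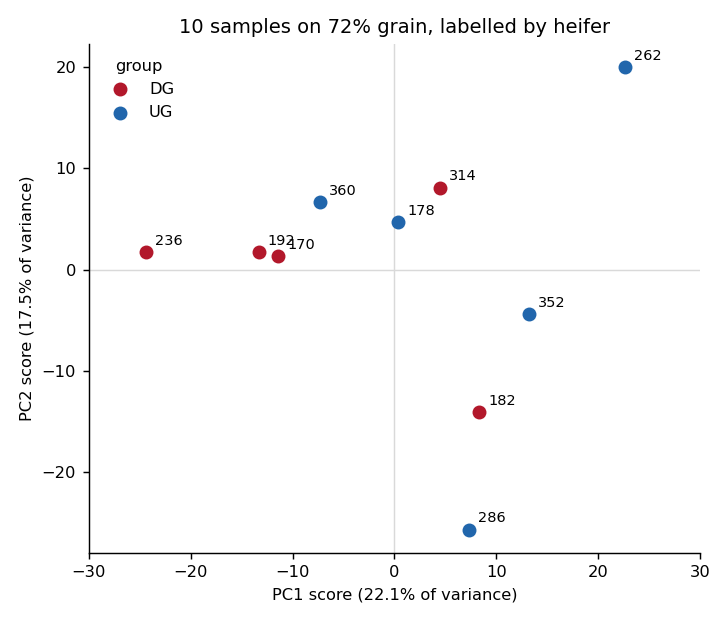
Scores of the 10 samples on the first (x axis) and second (y axis) principal components of log2(RPM + 1) over 11516 genes, labelled by heifer. DG (red) lies mostly to the left and UG (blue) mostly to the right, but DG heifers 314 (4.5) and 182 (8.3) stand right of UG heifers 178 (0.4) and 360 (-7.3) on the x axis.

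Whether the groups differed more on 72% grain than on the diet before or after it was tested gene by gene. For the difference on 72% minus that on 0% grain, 0 genes passed (smallest limma adjusted p 0.842), and 617 had an unadjusted p under 0.05. For the difference on 72% minus that on 89% grain, 0 genes passed (smallest adjusted p 0.808), and 695 had an unadjusted p under 0.05. edgeR and DESeq2 called 0 genes in both. With heifer as a replicate block, the smallest adjusted p-values were 0.315 and 0.371, with 1129 and 1263 genes at an unadjusted p under 0.05 and 0 genes past the threshold. Without a term for the heifer and with 1 heifer left out, the first count ranged from 325 (without heifer 352) to 911 (without heifer 192). The second ranged from 345 (without heifer 236) to 935 (without heifer 178).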

How the data were processed

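Ruminal papillae of 15 heifers on 3 diets (45 samples) were sequenced as 100-bp paired-end TruSeq mRNA libraries (Illumina). Per the submitters' notes and the study's methods, the authors demultiplexed reads with CASAVA 1.8, aligned them to UMD 3.1 with Tophat 2.0.10, counted them per Ensembl gene with htseq-count and deposited RPM, 1 file per sample. The RPM of a sample sum to 1000000, and all values (100%) were whole multiples of 1 read within 0.01 read, so reads were recovered. Whether strand was used in counting is not given in the sources used here.

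A gene was tested if, on any diet, every one of the 15 heifers had RPM over 1. limma 3.58.1 in R 4.3.3 was run with a trended prior variance on log2(RPM + 1) of the DG and UG samples, and p-values were adjusted by Benjamini-Hochberg over all genes tested. A call needed a fold change over 1.5 at an adjusted p under 0.05. Heifer was no term in the model. Fold changes are on the log2(RPM + 1) scale and understate low genes. The code was tested on simulated data. Alternatives were edgeR 4.0.16 and DESeq2 1.42.0 on the recovered reads, pseudocounts of 0.1 and 0.5, TMM scaling, other filters, no variance trend, wider sets of samples and each heifer left out. Other steps used Python 3.11.15, numpy 2.4.6, pandas 2.3.3, scipy 1.17.1 and matplotlib 3.10.9.

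Groups came from the comparison's rule and the paper, heifer and diet from the labels. Heifers differ between DG and UG, so the comparison is unpaired; across diets the same heifer was sampled, and deviations of the same heifer on 72% and 0% grain correlated with a median of 0.401 (lowest -0.022) and on 72% and 89% grain with 0.38 (lowest 0.164). Each lane held 9 samples with all diets, but lanes are not given per sample. No 2 of the 10 libraries were alike within sampling noise (smallest chi-square per degree of freedom 32.08 over 45 pairs).

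Named genes were those with the smallest p and no overlap (at most 2 unnamed per direction) and those the study pairs with an identifier, 12 from its list of genes and 5 by assignment. The comparison, the genes and the lists were chosen with earlier results of these data known. Pathway and cell marker lists, written by symbol, could not be applied, since no table used here pairs the identifiers with symbols. Ruminal pH was not analysed here.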

Additional observations from a re-analysis of the deposited data

Results flagged for a closer look

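Of 91 groups of 5 values examined, 10 held a heifer far from the other 4. Chance flags about 1 in 20 groups only where the values are independent and normally distributed. The values were RPM of the same heifers across diets, and some genes were chosen for their p, so the count is no evidence of an excess. In the comparison itself the flagged values were *CYP1A1* in DG heifer 236 (237 RPM), *KLK10* in UG heifer 352 (88.0 RPM), *CXCL6* in DG heifer 314 (12.6 RPM) and ENSBTAG00000018261 in UG heifer 286 (72.3 RPM). In BG on 72% grain they were *CXorf57* in heifer 362 (19.0 RPM) and *CDSN* in heifer 172 (73.1 RPM). On 0% grain they were *LIFR* in UG heifer 360 (1.59 RPM) and *CYP1B1* in DG heifer 170 (94.1 RPM). On 89% grain they were *LIFR* in DG heifer 182 (7.23 RPM) and *CYP1B1* in UG heifer 352 (33.3 RPM).

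*CYP1B1* moved in opposite directions in the groups from 72% to 89% grain, with a mean change of -11.7 RPM in DG (lower in 5 of 5 heifers) and 7.53 RPM in UG (higher in 5 of 5). The limma adjusted p of that difference was 0.808, and 0.371 with heifer as a replicate block.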

How the results depend on the processing

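The count of genes past the threshold on 72% grain was 0 with limma and edgeR under every alternative run, and 6 with DESeq2 (7 with DESeq2 on genes at RPM over 1 in at least 5 samples, added after seeing the data); the cause was not tested. Without single heifers it stayed at 0 to 0, with the smallest limma adjusted p from 0.233 to 1.0, or from 0.0681 at the wider filter without DG heifer 182. All 45 samples in 1 fit with heifer as a replicate block gave 0 genes (smallest adjusted p 0.624), and the block gave 0 genes for both steps between diets, so pairing changed no call. Without single heifers the difference on the first component ranged from 5.54 to 18.47, on the second from 0.07 to 6.86, and the variance held by group from 10.58% to 16.0%, with no exact p under 0.05.

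Among the named genes, DESeq2 alone called *LIFR*, ENSBTAG00000048059 and ENSBTAG00000004413, and *CHAC1* at the wider filter. Signs turned for genes near 0: *VNN1* was -0.02 with edgeR and -0.01 with DESeq2, and *CDHR2* 0.01 with edgeR and 0.00436 with DESeq2 (0.00485 at the wider filter). Leaving out 1 heifer gave log2 fold changes from -0.55 to 0.03 for *FOSB*, -0.63 to 0.06 for *BOLA-A*, -0.03 to 0.29 for *BMP6*, -0.00441 to 0.58 for *VNN1*, -0.57 to 0.17 for *CXCL6* and -0.42 to 0.2 for *CDHR2*.

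With 5 heifers a group, the p-values measure the spread between single biopsies of different heifers. The marker levels planned for each group were not run, since markers could not be matched to identifiers.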
